A study of Triticum aestivum with 4 samples.

Results

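Histones H2A and H2B are 2 of the core proteins around which DNA is wound in the nucleosome, where they sit as a pair. Most H2A and H2B messenger RNA is made while a cell copies its DNA, so tissue with many dividing cells usually holds much of it. In a cereal seed a few days after flowering, the endosperm is forming cell walls and dividing, and the embryo is small. Bread wheat carries related copies of most genes in its subgenomes, and its histone families hold many near-identical genes.

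The members were all genes whose symbol or synonyms, in the array's annotation or in RefSeq's gene list (wheat assembly IWGSC CS RefSeq v2.1), contain H2A or H2B. The rule found 5 genes with 18 probe sets, of 771 genes with a listed probe set and 61290 features on the array. The H2A genes were wcH2A-2 (LOC732712, 1 probe set), wcH2A-3 (LOC732713, 2 probe sets) and wcH2A-9 (LOC732714, also TH274, 6 probe sets). The H2B genes were wcH2B-6 (LOC543183, 2 probe sets) and wcH2B-8 (LOC543184, 7 probe sets). That list names 3 more such genes that had no listed probe set and were not analysed here: LOC123052487 (H2A-4 and H2A-10), LOC123058767 (H2B123) and LOC123064930 (H2B153). There LOC732712 and LOC732713 stand near each other on a chromosome, with 7 annotated genes between them. The genes are called histones here by these names alone.

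The study measured transcripts in developing seed of bread wheat, collected from field-grown plants at the location labelled SB 5 days after anthesis. Domain and RL4452 were crossed to make a mapping population, and each parent was represented by 2 arrays, labelled as biological replicates 1 and 3. No treatment is named in either group. The RNA was polyA-enriched and came from isolated seeds ground together, in a number the labels do not give. Such bulk seed holds endosperm, embryo and maternal seed coat, and fewer dividing cells cannot be told apart from less histone RNA per cell.

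Every value is a log2 ratio of the array's signal to the median of that probe set over the 4 arrays. A value of 0 is thus a probe set's own middle level. Arrays can be compared for 1 gene, but 1 gene cannot be ranked above another. Whether the histone transcripts were abundant in this seed cannot be read from these values. For each gene the median over its probe sets was taken on each array. Differences are RL4452 minus Domain, so a positive value means more transcript in RL4452.

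No H2A or H2B gene passed the test between the genotypes. Of the 18 probe sets 0 passed a Benjamini-Hochberg adjusted p under 0.05 in limma, and 0 had an unadjusted p under 0.05. Over all 61179 tested probe sets 0.280% passed the adjusted threshold and 5.85% the unadjusted one. With 1 median per gene 0 of the 5 genes passed the adjusted threshold, against 0.283% of all rows. The limma adjusted p of the 18 probe sets ran from 0.907 to 1.00. The 95% limma interval of the difference lay within 2-fold in both directions for 17 of the 18 probe sets, and for 74.6% of all tested probe sets. A change of 2-fold or more in the seed as a whole thus lies outside the interval for these 17. The median half-width of the 18 intervals was 0.50 on the log2 scale. Changes inside an interval were not resolved with 2 arrays per genotype.

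**Figure D1:**
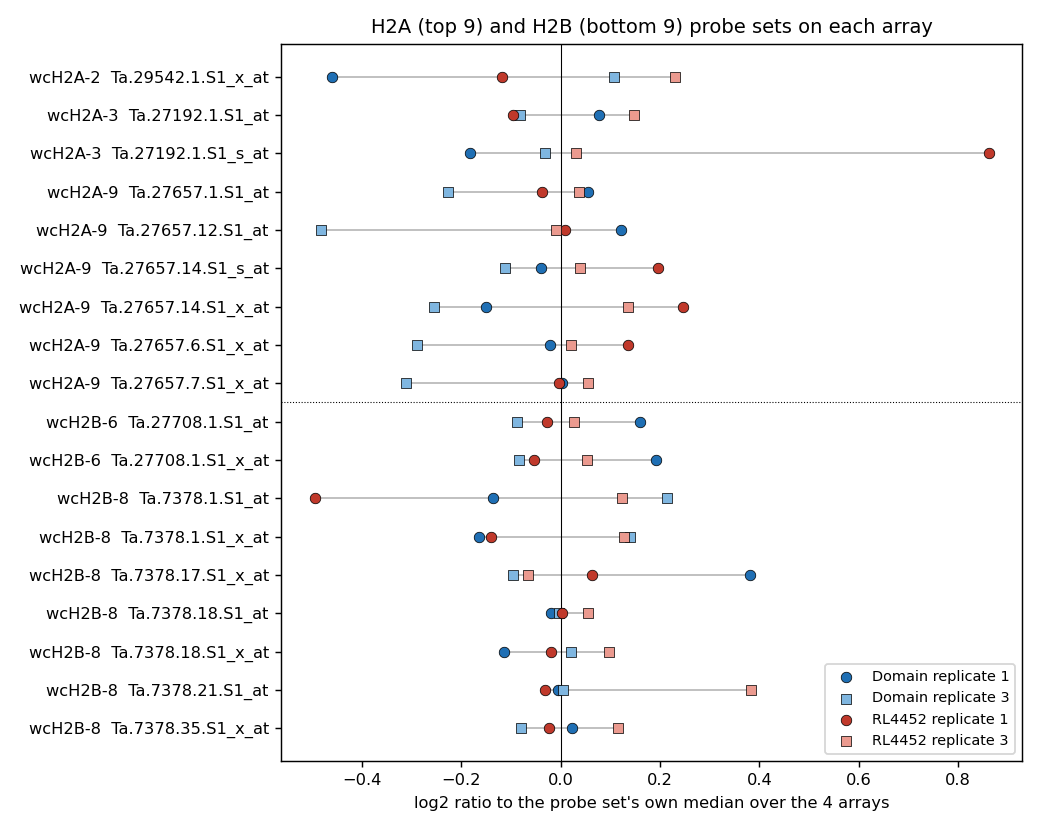
The log2 ratio of each H2A probe set (top 9 rows) and H2B probe set (bottom 9 rows) on the 4 arrays, blue for Domain and red for RL4452, circles for replicate 1 and squares for replicate 3; grey lines join the lowest and highest array. In 5 rows both RL4452 arrays lie above both Domain arrays, and the widest row is a wcH2A-3 probe set at 0.86 on RL4452 replicate 1.

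Among the H2A genes, wcH2A-2 was read by a single probe set, Ta.29542.1.S1_x_at. Its log2 ratio was -0.46 in Domain replicate 1, 0.11 in Domain replicate 3, -0.12 in RL4452 replicate 1 and 0.23 in RL4452 replicate 3. Both arrays numbered 3 were above both arrays numbered 1, and the genotypes overlapped. Domain averaged -0.18 ± 0.40 and RL4452 0.057 ± 0.25 (SD, n = 2). Their difference of 0.23 had an SE of 0.27 (limma adjusted p = 0.988), smaller than the spread between the Domain arrays. It rested on single arrays: leaving out Domain replicate 1 turned it to -0.052, and leaving out Domain replicate 3 raised it to 0.52. It was 0.41 without RL4452 replicate 1, and 0.059 with only that RL4452 array.

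The 2 probe sets of wcH2A-3 were built on the same target sequence and gave different pictures. For Ta.27192.1.S1_at the Domain values were 0.077 (replicate 1) and -0.082 (replicate 3) and the RL4452 values -0.095 and 0.15, with the genotypes overlapping. For Ta.27192.1.S1_s_at the Domain values were -0.18 and -0.031 and the RL4452 values 0.86 and 0.030, so that 1 array, RL4452 replicate 1, stood far above the other 3. On that array the probe sets differed by 0.96 on the log2 scale. Their genotype differences were 0.028 with SE 0.19 and 0.55 with SE 0.32 (limma adjusted p = 1.00 and 0.955). The second was the only one of the 18 whose 95% interval, -0.26 to 1.37, reached past 2-fold, and 10.0% of all tested probe sets had a larger absolute difference. The suffix _s_at marks probes that match more than 1 transcript of the array's design. Which other transcripts this one matches was not tested.

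As a gene, wcH2A-3 had Domain medians of -0.053 (replicate 1) and -0.056 (replicate 3), and RL4452 medians of 0.38 and 0.089. Both RL4452 arrays were above both Domain arrays. The difference was 0.29 with SE 0.19 (limma adjusted p = 0.963). It was 0.14 without RL4452 replicate 1, 0.44 without RL4452 replicate 3 and 0.028 with the _s_at probe set left out.

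The 6 probe sets of wcH2A-9 shared a low value in 1 array. In 6 of 6 the lowest array was Domain replicate 3, at -0.11 to -0.48, while that array was the lowest for 4 of the other 12 members and for 20.7% of all tested probe sets. The highest array was RL4452 replicate 1 in 3 probe sets, Domain replicate 1 in 2 and RL4452 replicate 3 in 1. These probe sets read transcripts of 1 gene or its close relatives and share their 4 arrays, so they do not count as 6 separate replicates. A further 8 probe sets share their cluster number but have no listed gene. For these the lowest array was Domain replicate 1 in 4, Domain replicate 3 in 3 and RL4452 replicate 3 in 1.

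The widest genotype difference among them was that of Ta.27657.14.S1_x_at, with Domain values of -0.15 (replicate 1) and -0.25 (replicate 3) and RL4452 values of 0.25 and 0.14. The genotypes did not overlap there, and the difference was 0.39 with SE 0.18 (limma adjusted p = 0.907), the smallest adjusted p of all members. Its partner on the same target, Ta.27657.14.S1_s_at, had a difference of 0.19, and the groups were separate there too. A further probe set without overlap was Ta.27657.6.S1_x_at, at 0.23. The remaining 3 had differences of 0.085, 0.18 and 0.18, with overlapping genotypes.

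With 1 median per gene, wcH2A-9 read -0.0095 in Domain replicate 1, -0.27 in Domain replicate 3, 0.072 in RL4452 replicate 1 and 0.038 in RL4452 replicate 3. The RL4452 arrays were close together and above both Domain arrays, of which only replicate 3 lay well apart. Domain averaged -0.14 ± 0.19 and RL4452 0.055 ± 0.024 (SD, n = 2). RL4452 exceeded Domain by 0.20 with SE 0.19 (limma adjusted p = 0.979). Leaving out Domain replicate 1 gave 0.33, and leaving out Domain replicate 3 gave 0.064.

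Of the H2B genes, wcH2B-6 gave the same picture in both of its probe sets, which share a target. As a gene it read 0.18 in Domain replicate 1, -0.085 in Domain replicate 3, -0.041 in RL4452 replicate 1 and 0.040 in RL4452 replicate 3. The Domain arrays held both the highest and the lowest value, with the RL4452 arrays between them. The probe sets differed by at most 0.033 on any array. The difference between genotypes was -0.046 with SE 0.19 (limma adjusted p = 1.00). Leaving out Domain replicate 1 turned it to 0.085, and leaving out Domain replicate 3 moved it to -0.18. With RL4452 replicate 3 left out it was -0.086, and with RL4452 replicate 1 left out -0.0056.

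The 7 probe sets of wcH2B-8 had differences from -0.22 to 0.18, 5 above and 2 below 0. As a gene its Domain values were -0.020 (replicate 1) and 0.0058 (replicate 3), and its RL4452 values -0.023 and 0.12. The genotypes overlapped, and only RL4452 replicate 3 stood somewhat above the other arrays. The difference was 0.053 with SE 0.18 (limma adjusted p = 1.00), and it was -0.016 without RL4452 replicate 3 and 0.12 without RL4452 replicate 1.

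Single wcH2B-8 probe sets departed from this flat profile in different arrays. Ta.7378.1.S1_at had Domain values of -0.14 (replicate 1) and 0.21 (replicate 3) and RL4452 values of -0.49 and 0.12, low on both arrays numbered 1. Its partner on the same target, Ta.7378.1.S1_x_at, was low there too, at -0.16 and 0.14 in Domain and -0.14 and 0.13 in RL4452. Ta.7378.17.S1_x_at was high in Domain replicate 1 alone, at 0.38; the other Domain array was at -0.095 and the RL4452 arrays at 0.064 and -0.066. Ta.7378.21.S1_at was high in RL4452 replicate 3 alone, at 0.38; the other RL4452 array was at -0.031 and the Domain arrays at -0.0058 and 0.0058. The flattest was Ta.7378.18.S1_at, whose 4 arrays spanned 0.076, a narrower range than 99.2% of all tested probe sets had. Its RL4452 arrays were both above its Domain arrays.

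**Figure D2:**
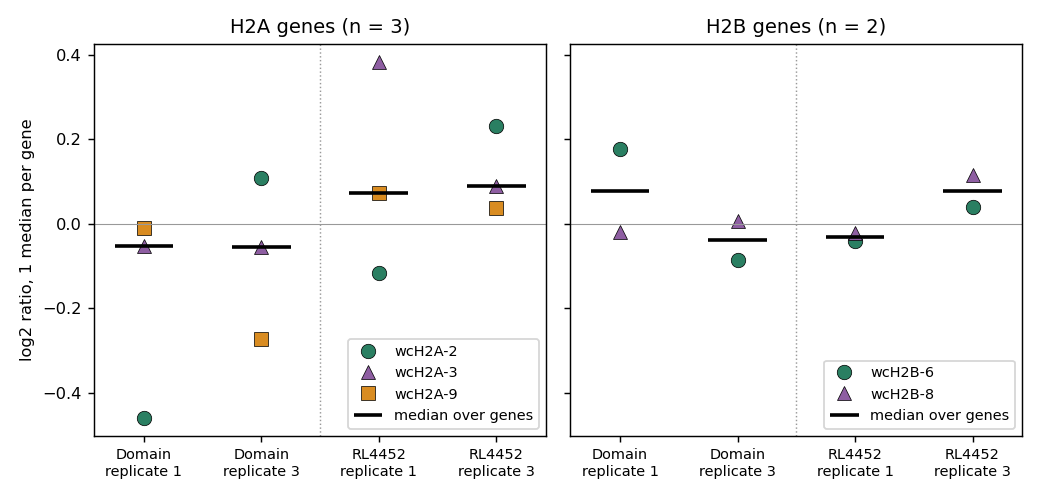
The log2 ratio of each H2A gene (left) and H2B gene (right) on each array, 1 median per gene over its probe sets, with a black bar at the median over genes. The Domain bars are at -0.053 and -0.056 for H2A and 0.078 and -0.040 for H2B, and the RL4452 bars at 0.072 and 0.089 for H2A and -0.032 and 0.077 for H2B.

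Set side by side over all their probe sets, the H2A and H2B groups had different profiles over the arrays. The median over the 3 H2A genes was -0.053 in Domain replicate 1, -0.056 in Domain replicate 3, 0.072 in RL4452 replicate 1 and 0.089 in RL4452 replicate 3, below 0 in both Domain arrays and above 0 in both RL4452 arrays. The median over the 2 H2B genes was 0.078, -0.040, -0.032 and 0.077 in the same order, with the genotypes overlapping. Single H2A genes scattered more widely than these medians: in Domain replicate 1 wcH2A-2 was at -0.46 and wcH2A-9 at -0.0095. The H2A median minus the H2B median was -0.13 (replicate 1) and -0.016 (replicate 3) for Domain, and 0.10 and 0.012 for RL4452, so RL4452 replicate 3 and Domain replicate 3 lay within 0.028 of each other. The H2A profile depended on the shared-probe sets. Without them wcH2A-3 read 0.077 (replicate 1) and -0.082 (replicate 3) in Domain, and -0.095 and 0.15 in RL4452. The values of wcH2A-9 were then 0.088 and -0.35 in Domain, and -0.015 and 0.014 in RL4452. Both genes then had the sign of the H2B median on each array, with the genotypes overlapping.

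Over the genes of each group, the median difference between genotypes was 0.23 for H2A and 0.0036 for H2B. Without the probe sets whose suffix marks shared probes, the H2A median was 0.080 over the 2 genes left. That leaves out wcH2A-2, which has no other probe set. Of the 9 H2A probe sets 9 had a positive difference, from 0.028 to 0.55, and of the 9 H2B probe sets 5 did, over a range of -0.22 to 0.18, against 52.0% of all tested probe sets. The 9 of H2A stand for 7 targets and the 9 of H2B for 6, and wcH2A-9 alone holds 6 of the H2A probe sets. Neither set thus counts as 9 separate units. None of the H2A or H2B differences passed the test, and the difference between the groups was not tested.

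**Figure D3:**
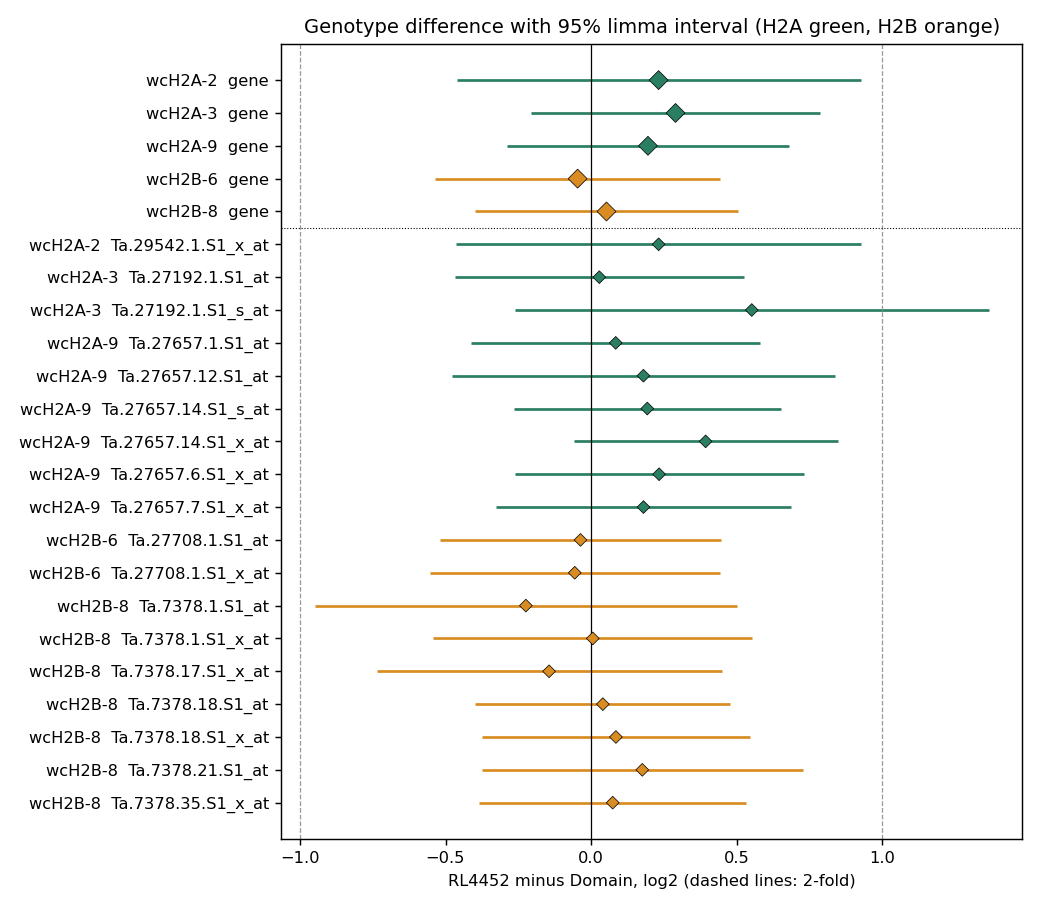
The RL4452 minus Domain difference (log2) of each H2A and H2B gene and probe set with its 95% limma interval. Every interval includes 0, and the highest estimate is 0.55 for a wcH2A-3 probe set.

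Both RL4452 arrays lay above both Domain arrays for 5 of the 18 probe sets, 4 of H2A and 1 of H2B, against 17.0% of all tested probe sets. The 4 of H2A all carry a shared-probe suffix, and 0 of the 3 H2A probe sets without one were separate. Both lay below for 0 of the 18, against 15.5%. With 1 median per gene, 2 of the 5 genes were separate with RL4452 higher, wcH2A-3 and wcH2A-9, against 17.0% of all rows. Without shared-probe sets the genotypes overlapped for both genes. Within replicate 1 the RL4452 minus Domain difference was 0.34 for wcH2A-2, 0.44 for wcH2A-3, 0.081 for wcH2A-9, -0.22 for wcH2B-6 and -0.0029 for wcH2B-8. Within replicate 3 it was 0.12, 0.15, 0.31, 0.13 and 0.11 in the same order. Of the single H2A probe sets 4 of 9 were below 0 within replicate 1 and 0 of 9 within replicate 3. Without shared-probe sets the replicate 1 difference was -0.17 for wcH2A-3 and -0.10 for wcH2A-9, and that of replicate 3 was 0.23 and 0.37. Domain replicate 3 and RL4452 replicate 1 were run on the same fluidics module, the washing station of the array system, and each other array on a module of its own. On that shared module RL4452 minus Domain was -0.23 for wcH2A-2, 0.44 for wcH2A-3, 0.34 for wcH2A-9, 0.044 for wcH2B-6 and -0.029 for wcH2B-8, with the sign opposite to that over all 4 arrays for wcH2A-2, wcH2B-6 and wcH2B-8.

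The members' differences were of the size usual on this array. The median absolute difference was 0.16 over the 18 probe sets, 0.19 for H2A and 0.074 for H2B, and 0.17 over all tested probe sets. The median absolute difference between replicates was 0.26 in Domain and 0.12 in RL4452 for the members, and 0.24 in either genotype over all tested probe sets.

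**Figure D4:**
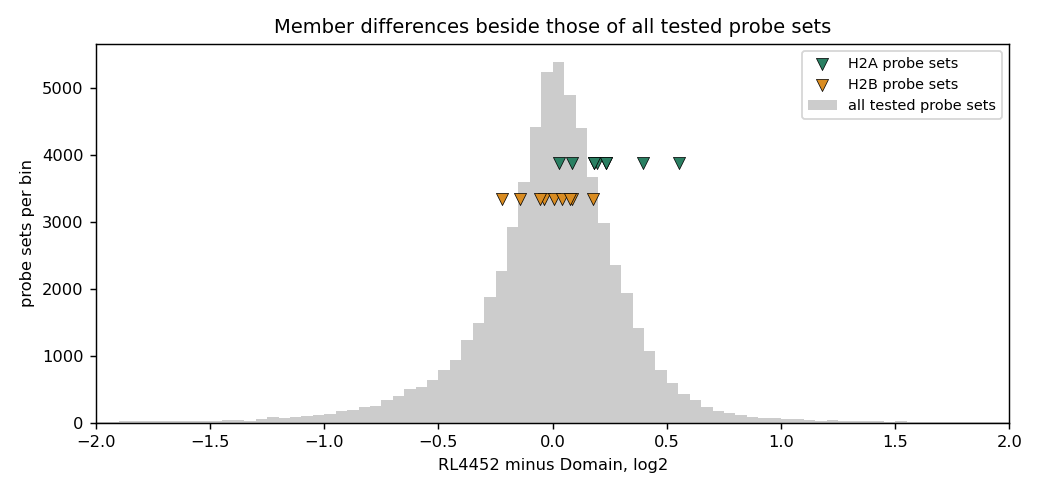
The distribution of the RL4452 minus Domain difference (log2) over all 61179 tested probe sets, with the 9 H2A and 9 H2B probe sets marked. The members lie between -0.22 and 0.55, around an overall median of 0.010.

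Few other genes of chromatin and cell division had a listed probe set. Of the lists used, other histones matched 0 genes, and DNA replication and cell cycle genes matched 0. The chromatin list matched 1, Hmgb3 (LOC543333), whose name in animals is that of a DNA-binding high-mobility-group protein. Its 2 probe sets had differences of 0.25 and 0.29, and 0 passed. Tubulins, which build the microtubules of the spindle and the cell cortex, matched 6 genes with 10 probe sets. Of these probe sets 4 had a positive and 6 a negative difference, and the median was -0.22. In limma 0 passed the adjusted test and 2 had an unadjusted p under 0.05, against 5.85% of all tested probe sets. With 1 median per gene, 3 of the 6 were above and 3 below 0, with a median of 0.0087, and 0 passed. Both unadjusted calls were probe sets of Tubb5 (LOC543261), a beta-tubulin by its name, whose 4 probe sets had differences of -0.36, -0.35, -0.47 and -0.56 (limma adjusted p from 0.818 to 0.953).

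Tissue markers can be given only as differences, since presence cannot be read from ratios to a probe set's own median. The 6 endosperm probe sets, of 4 genes, had a median difference of -0.29, within a range of -1.70 to 2.39. The median was 0.024 for the 31 of green tissue, of 3 genes, and -0.048 for the 7 of embryo and late seed, of 4 genes. Probe sets of the same gene do not count as separate markers. In each list 0 passed. An unadjusted limma p under 0.05 was found for 2 of the endosperm probe sets (lowest limma adjusted p = 0.0992), 1 of green tissue and 0 of embryo and late seed. The share over all tested probe sets was 5.85%. The array medians of the endosperm probe sets were -0.14 (replicate 1) and 0.31 (replicate 3) for Domain and 0.029 and -0.066 for RL4452. Those of green tissue were -0.034, -0.0072, 0.0029 and 0.0029 in the same order, and those of embryo and late seed -0.15, 0.099, -0.11 and 0.14. RNA quality can likewise be compared between arrays only. The 3' value minus the 5' value of 7 wheat control transcripts had a median of 0 and -0.0023 on the Domain arrays. On the RL4452 arrays the median was -0.22 and 0.40. A value of 0 here is a middle level among the 4 arrays and does not mean intact RNA. Single transcripts scattered widely, from -0.26 to 0.40 on the Domain arrays and from -0.87 to 1.74 on the RL4452 arrays. The recorded hybridisation times differed, in the order Domain replicate 1, RL4452 replicate 1, Domain replicate 3 and RL4452 replicate 3. The part of tissue makeup, RNA quality and hybridisation time in the histone values was not tested.

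Of 97 other genes with a readable name, those nearest the median profile of the 5 histone genes were LOC543289 (la-17), LOC100049018 (rbcl) and LOC543050 (at2G04570). Their mean absolute log2 difference from it over the 4 arrays was 0.038, 0.049 and 0.061, against a median of 0.24 over the 97 genes. The histone median profile itself stayed near 0, at -0.020 (replicate 1) and -0.056 (replicate 3) in Domain and -0.023 and 0.089 in RL4452. Nearness to it thus picks genes that also vary little, and does not show a shared pattern over the arrays. The highest array was RL4452 replicate 3 for the histone median and RL4452 replicate 1 for LOC543050.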

How the data were processed

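RNA from developing wheat seed was hybridised to 4 Affymetrix arrays, 2 per genotype. The submitters' processing notes name RMA, with no version. The authors deposited linear ratios; 99.5% of probe sets had a median over the arrays within 0.002 of 1, so each ratio is to the probe set's own median. How that step was done is not given in the sources used here. The deposited ratios were taken to log2 and tested with limma 3.58.1 in R 4.3.3, genotype alone, with Benjamini-Hochberg adjustment over 61179 probe sets (111 controls left out) or 60677 rows with 1 median per listed gene. Probe sets were named through the platform annotation. Every H2A or H2B gene was named, and the 3 nearest other genes by mean absolute difference. Members and lists were chosen with earlier results of these data known. All SEs, intervals and p-values are limma's moderated ones. They combine the spread of a row's own arrays with a spread estimated from all rows. In the probe set fit these had 2 and 2.99 degrees of freedom. An SE can thus be larger or smaller than the SDs of 2 arrays would give, and 2 arrays per genotype limit the precision. The labels do not say that a replicate number marks a shared field block. Sequences were not used here. Alternatives were another normalisation, robust fitting, a replicate block, the fluidics module that held both genotypes, other summaries per gene, and leaving out each array or the shared-probe sets.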

Additional observations from a re-analysis of the deposited data

How the results depend on the processing

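No H2A or H2B probe set or gene passed the adjusted limma threshold under any alternative run that kept every array. Over the whole array the 171 calls became 0 with the replicate block (4555 at an unadjusted p under 0.05) and 0 to 128 with 1 array left out: 0 without Domain replicate 1 (3292 unadjusted) and 0 without Domain replicate 3 (3418 unadjusted). The replicate differences of the genotypes correlated at 0.143 across probe sets. The median H2A difference was 0.080 without shared-probe sets and 0.34 on the fluidics module that held both genotypes. The H2B median was -0.0027 after quantile normalisation, -0.0044 after median centring, -0.022 with the mean over probe sets and -0.055 to 0.062 with 1 array left out. With 1 array left out the difference ran from -0.052 to 0.52 for wcH2A-2, -0.18 to 0.085 for wcH2B-6 and -0.016 to 0.12 for wcH2B-8. The spread of a genotype left with 1 array is then taken from the other genotype, so these runs are given as differences only. The causes were not tested.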

Other observations

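A further 39 probe sets share the cluster number in their identifier with wcH2A-9 or wcH2B-8 probe sets and have no listed gene; they were looked at after values were seen and are given no gene name. Their differences ran from -0.44 to 0.86 with a median of 0.054, 24 above and 15 below 0. In limma 0 passed (lowest adjusted p = 0.487), and 4 of 39 had an unadjusted p under 0.05, against 5.85% of all tested probe sets. Of the 8 in the wcH2A-9 cluster 8 had a positive difference and 6 had both RL4452 arrays above both Domain arrays, against 17.0% of all tested probe sets. Among these 8 are pairs on the same target, Ta.27657.5.S1_at with Ta.27657.5.S1_x_at and Ta.27657.9.S1_at with Ta.27657.9.S1_x_at. Probe sets of a cluster also share their 4 arrays, so they do not count as separate replicates. Of the 31 in the wcH2B-8 cluster 16 had a positive difference, 7 had both RL4452 arrays above and 5 had both below, against 17.0% and 15.5%. The largest difference of the 39, 0.86, was that of Ta.7378.6.S1_at in the wcH2B-8 cluster, with Domain values of -0.29 (replicate 1) and -0.89 (replicate 3) and RL4452 values of 0.30 and 0.24. The probe set Ta.27657.5.S1_at had Domain values of -0.37 (replicate 1) and -0.36 (replicate 3) and RL4452 values of 0.61 and 0.29.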
